A study of Mus musculus with 71 samples.

Results

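The cytosolic ribosomal protein genes were followed in bulk RNA-seq of the nucleus accumbens (NAc), ventral tegmental area (VTA) and prefrontal cortex (PFC) of mice that self-administered cocaine or saline. A gene was taken as a member when its symbol was Rpl or Rps followed by a number, with at most a short suffix, or was Rplp0, Rplp1, Rplp2 or Rpsa, and symbols marked as pseudogenes were left out. The rule found 83 members among the 37681 genes of the tables, 50 of the large and 33 of the small subunit. The animals were adult C57BL/6 wild-type mice, and all of them, saline controls included, had first been trained to respond for food pellets and were fitted with a jugular catheter. They were studied after 1 or 28 days of abstinence. Each region had 6 cocaine and 6 saline libraries at each time, except for the VTA at 28 days, with 6 cocaine and 5 saline libraries. The study used mice of both sexes, and the labels do not give the sex behind a library. Each library was made from small tissue punches, which hold neurons, glia, vessels and blood together, so that fewer cells of a type and less RNA per cell cannot be told apart. Separate mice are not stated for every library, so that p-values measure the spread between these libraries.

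Ribosomal proteins join the ribosomal RNAs to form the small subunit, which decodes the mRNA, and the large subunit, which forms the peptide bond. Their mRNAs begin with a C followed by a run of pyrimidines, the terminal oligopyrimidine motif, through which mTORC1 and LARP1 set how strongly they are translated. Neurons also carry these mRNAs into dendrites and axons, and phosphorylated Rps6 is widely used as a mark of neuronal activity. An mRNA level gives neither the amount of the protein nor its phosphorylation.

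The bases around the annotated start are shown for some of the members named below, since this is where the shared motif lies. RefSeq starts on GRCm38.p6 were found for 61 of the 83 members, and Rps4y2, Rplp1 and Rpl36 were among those without one. The 30 bases printed run 5′ to 3′ on the strand of the gene, from 10 bases before the start through the first 20 bases from it on. Capitals mark the longest run in the window of at least 5 bases that are all C or T and that begins with C. Runs were searched on the gene's own strand only, and any further run stays in lower case. Rps6 (chr4:86857348-86857377, minus strand), Rps15a (chr7:118116128-118116157, minus), Rps12 (chr10:23787190-23787219, minus), Rps27 (chr3:90213629-90213658, minus), Rps2 (chr17:24720053-24720082, plus), Rpl12 (chr2:32961702-32961731, plus), Rpl31 (chr1:39367841-39367870, plus) and Rplp2 (chr7:141447641-141447670, plus) hold such a run, and Rps4x (chrX:102189372-102189401, minus) and Rpl5 (chr5:107900518-107900547, plus) do not.
Rps6: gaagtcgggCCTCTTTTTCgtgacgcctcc
Rps15a: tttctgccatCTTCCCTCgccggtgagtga
Rps12: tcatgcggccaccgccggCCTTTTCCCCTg
Rps27: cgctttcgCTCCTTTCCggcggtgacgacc
Rps2: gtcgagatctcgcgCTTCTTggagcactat
Rpl12: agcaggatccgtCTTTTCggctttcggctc
Rpl31: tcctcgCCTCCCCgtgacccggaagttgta
Rplp2: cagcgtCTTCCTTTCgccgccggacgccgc
Rps4x: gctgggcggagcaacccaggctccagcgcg
Rpl5: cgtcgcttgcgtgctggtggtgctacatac

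A run was present near a start in 42 of the 61 matched members, or 68.9%, against 39.6% of the 27025 genes of the same table. Rpl22 and Rps27l, which are not printed, each had a start with a run and a start without. RefSeq starts are not mapped transcription starts, and the run can begin well inside the window, as in Rps12, so that a match describes the letters and nothing more.

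The libraries held 20971967 to 49700932 reads on genes, and the members took 0.913 to 2.32% of them. Markers of medium spiny neurons, dopamine neurons and cortical excitatory neurons were highest in the NAc, VTA and PFC, respectively, and of the 10 cortical markers only Cux2 was listed at 0 throughout, the PFC included. Cortical markers varied between NAc libraries, from −0.75 to 2.55 in mean log2 RPKM, with PFC libraries at 3.95 to 4.59. A pair of saline libraries stood apart in their tables. In saline library 1 of the 28-day VTA the members took 2.32% of reads, against 1.36 to 1.61% in the other 10 libraries, while mitochondrially encoded genes took 1.97% against 3.05 to 3.52%. In saline library 4 of the 28-day PFC the markers of medium spiny neurons summed to 1398 RPKM, where the median saline library had 126, and the cortical markers summed to 497 RPKM, the lowest of the table, where the median saline library had 741. Counts and medians of the 28-day tables are given with and without these 2 libraries, as are the values of named members that moved most without them.

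The members were among the more abundant mRNAs in every region, and their order was shared between tables. After 1 day the highest was Rps27, a small subunit protein with a zinc finger, with a mean saline level of 497 RPKM (reads per kilobase of gene, scaled to library size) in the NAc, 425 in the VTA and 376 in the PFC. After 28 days the highest was Rplp1, a protein of the stalk that recruits elongation factors, at 1042, 742 and 721 RPKM. The median member had 125, 131 and 108 RPKM after 1 day and 193, 192 and 161 RPKM after 28 days in the NAc, VTA and PFC. Across the 82 members with reads, the rank correlation of levels between any 2 of the 6 tables lay between 0.850 and 0.993. These levels are across genes that share libraries and are a description. The paralogs Rpl3l, Rpl10l and Rpl39l, known from muscle and testis, were under 1 RPKM in every table, and Rpl10l had no reads. The symbol Rpl41 is not in the tables. The members lie on 19 chromosomes, with 14 on chromosome 7 and 8 on chromosome 17. They have many processed copies in the genome, and the 156 entries marked as pseudogenes of members took only 0.0161 to 0.0356% of reads. Reads shared between a member and such a copy, or between Rps4x and its single-exon near-copy Rps4y2 (chromosome 6, 148303178 to 148304120 of mm9, plus strand), may have been split by the counting.

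**Figure D1:**
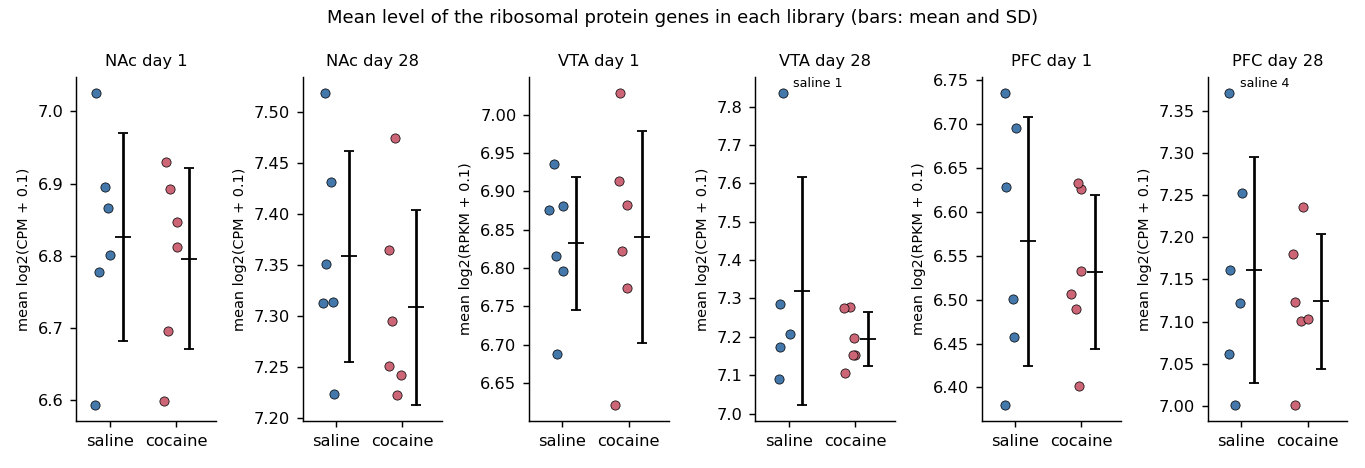
Mean of the tested ribosomal protein genes in each library, as mean log2(CPM + 0.1) or, for VTA and PFC day 1, mean log2(RPKM + 0.1), with 1 point per library and bars for the mean and SD of a group. Cocaine and saline libraries overlap in all 6 panels, and saline 1 of the 28-day VTA lies at 7.84, above the other 10 libraries at 7.09 to 7.29.

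Whether ribosomal protein mRNAs differed after self-administration was asked by setting cocaine against saline libraries of the same region and time. None of the members passed an adjusted p of 0.05 in any of the 6 comparisons. The tests were edgeR's quasi-likelihood test for the 4 tables of counts, and limma on log2(RPKM + 0.1) for the VTA and PFC after 1 day, with Benjamini-Hochberg adjustment over all genes. In the plot of mean levels by library the groups overlapped in every table. For example, in the NAc after 28 days the member mean of the cocaine libraries ran from 7.22 to 7.47 with a median of 7.27 in log2 CPM, and that of the saline libraries from 7.22 to 7.52 with a median of 7.33.

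In the NAc after 1 day the ribosomal protein genes lay close to no difference. Of 80 members tested, 0 were called after adjustment, with 0.0126% of the 15878 genes called, and 0 were higher and 0 lower at an unadjusted p under 0.05, with 2.76% of all genes higher and 1.25% lower. DESeq2 called 0 members after adjustment and found 0 higher and 1 lower at an unadjusted p under 0.05. The median log2 fold change of the members was −0.012 against −0.0012 for all genes, and 32 of the 80 members lay above 0, or 40.0% against 49.5% of all genes. Rps25, a small subunit protein used at some internal ribosome entry sites, had the largest positive difference among members with a mean of at least 10 CPM (counts scaled to library size), the floor used for naming the extremes of each table. Its level ran from 170.5 to 214 CPM with a median of 189 in cocaine libraries, and from 168 to 187 CPM with a median of 181 in saline libraries. The difference was 0.09 ± 0.06 (log2 ± SE), and the groups overlapped. Rplp1 had the largest negative difference at −0.26 ± 0.20, from 59.5 to 108 CPM with a median of 81.0 in cocaine and from 49.2 to 145 CPM with a median of 94.7 in saline libraries. The saline range of Rplp1 enclosed the cocaine range. Next in each direction were Rpl31 at 0.08 and Rps29 at −0.19, and the smallest adjusted p of a member rounded to 1.00 with edgeR.

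In the NAc after 28 days most members lay slightly on the lower side in cocaine. None of 81 members was called after adjustment, where 0% of the 16295 genes were called in edgeR's test. At an unadjusted p under 0.05, 0 members were higher and 3 lower, against 3.34% and 3.42% of all genes, and DESeq2 found the same counts with 0 called after adjustment. The median was −0.05 against 0.0045 for all genes, and 8 of 81 members lay above 0, or 9.88% against 52.0% of all genes. The median was −0.055 for the large and −0.049 for the small subunit. Leaving out 1 library at a time moved the median of the members between −0.089 and −0.016. The 3 members were Rpl39, a short protein of the exit tunnel, Rpl34 and Rps4y2. Rpl39 ran from 53.8 to 66.9 CPM with a median of 57.2 in cocaine and from 60.9 to 66.4 CPM with a median of 63.4 in saline libraries. Rps4y2 ran from 11.6 to 16.8 CPM with a median of 14.2 in cocaine and from 14.0 to 18.5 CPM with a median of 16.8 in saline libraries. The groups overlapped for both, the log2 differences were −0.12 and −0.20 ± 0.09, and the adjusted p of Rps4y2 was 0.723 with edgeR. Rpl36 was the other member of the 2 largest negative differences, at −0.15 ± 0.11. The largest positive differences were 0.05 for Rpl7l1 and 0.04 for Rpl22l1. Blood markers were lower in these cocaine libraries in 5 of 5 genes at an unadjusted p under 0.05, with a summed level of 82.1 to 135 RPKM in cocaine and 89.0 to 514 RPKM in saline libraries. Endothelial markers were lower in 3 of 6 genes, with sums of 88.3 to 109.7 and 96.4 to 129 RPKM, and oligodendrocyte markers in 2 of 8 genes, with sums of 1382 to 1731 and 1562 to 1814 RPKM. None of these markers was at 0, and their part in the member values was not tested.

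Both NAc times were also fitted together in edgeR to test whether the cocaine difference changed with time. The adjusted threshold was passed by 0 of 81 members and by 0.0181% of the 16612 genes, and an unadjusted p under 0.05 by 0 members and by 5.27% of the genes. The median interaction of the members, 28 days minus 1 day, was −0.010 on the log2 scale against 0.020 for all genes.

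In the VTA after 1 day no member was called, and where the members lay against the other genes depended on the scaling. None of 80 members was called by limma, with 0.0665% of 15042 genes called. At an unadjusted p under 0.05, 1 member was higher and 0 lower, against 11.2% and 4.57% of all genes. edgeR on the whole reads that the RPKM values return gave 0 members higher and 1 lower at an unadjusted p under 0.05 and 0 after adjustment. The median difference was 0.0080 for members and 0.030 for all genes, and 46 of 80 members lay above 0, or 57.5% against 58.9%. With edgeR on reads 28.4% of members lay above 0 against 47.9% of all genes, with medians of −0.035 and −0.0081. Once each library was centred on its median gene these were 10.0% against 39.1%, with medians of −0.063 and −0.041. The 1 member was Rps27l, a p53-responsive paralog of Rps27. It ran from 13.7 to 19.2 RPKM with a median of 18.1 in cocaine and from 14.0 to 16.6 RPKM with a median of 15.4 in saline libraries, a log2 difference of 0.17 ± 0.08 and an adjusted p of 0.304 with limma. The lowest cocaine library was below every saline library. Rps4x, the form of Rps4 on the X chromosome, followed at 0.10 ± 0.06, from 312 to 353 RPKM in cocaine and from 279 to 341 RPKM in saline libraries. The largest negative differences were −0.17 ± 0.12 for Rpl29 and −0.15 ± 0.20 for Rplp1. In these libraries 7 of 8 microglial markers were lower in cocaine at an unadjusted p under 0.05, and their summed level was 147 to 216 RPKM in cocaine and 214 to 303 RPKM in saline libraries. Dopamine neuron markers were lower in 4 of 7 genes tested, with sums of 430.0 to 1051 and 671 to 1713 RPKM, and fibroblast markers higher in 5 of 6 genes, with sums of 38.2 to 248 and 13.4 to 72.6 RPKM. None of these markers was at 0, and their part was not tested.

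In the VTA after 28 days nearly all members lay on the lower side in cocaine, and this came with saline library 1. None of 81 members was called by edgeR's quasi-likelihood test, with 0% of 16937 genes called. At an unadjusted p under 0.05, 0 members were higher and 5 lower, against 5.08% and 6.39% of all genes. DESeq2 found the same counts of members and called 74 genes after adjustment, of which 1 was a member, Rpl22. The median log2 fold change was −0.165 against −0.030 for all genes, and 3 of 81 members lay above 0, or 3.70% against 43.1%. Without saline library 1 the median was 0.0032 against 0.00049, and 41 of 81 members lay above 0, or 50.6% against 50.1%. In that fit 0 members and 0% of 17091 genes were called, and 1 member was higher and 1 lower at an unadjusted p under 0.05, against 9.89% and 11.9% of all genes. With all libraries kept and the cortical marker mean of each library added as a covariate, 0 members were called, 61 of 81 were lower at an unadjusted p under 0.05 against 13.1% of all genes, and the median was −0.36 against −0.0087. That covariate fit kept saline library 1, and no covariate fit was made without saline library 1. The cortical markers summed to 13.5 to 30.2 RPKM in cocaine and 14.1 to 95.2 RPKM in saline libraries, with saline library 4 the highest. Markers of 3 other cell types moved with cocaine in this table. At an unadjusted p under 0.05, 4 of 6 endothelial markers were lower, with a summed level of 105.1 to 148 RPKM in cocaine and 117 to 249 RPKM in saline libraries. Oligodendrocyte markers were lower in 3 of 8 genes, or 8 of 8 without saline library 1, with sums of 2750 to 4912 and 3960.2 to 7664 RPKM. Microglial markers were lower in 2 of 8 genes, or 5 of 8 without that library, with sums of 155 to 247 and 222 to 413 RPKM. None of these markers was at 0, and their part in the member values was not tested.

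Rpl22, an RNA-binding protein of the large subunit, was the only member lower at an unadjusted p under 0.05 in edgeR both with and without that library. Its 5 saline libraries had 101, 78.4, 83.2, 81.4 and 90.1 CPM, and its 6 cocaine libraries ran from 63.4 to 76.1 CPM with a median of 69.8. All cocaine libraries lay below all saline libraries. The difference was −0.31 ± 0.08 with an unadjusted p of 0.00163 and an adjusted p of 0.389 in edgeR, and −0.24 without saline library 1 with an adjusted p of 0.106. Its paralog Rpl22l1 differed by 0.02. Rps12 had the largest negative difference, −0.33 ± 0.18. It had 340.1, 154, 187, 194 and 181 CPM in the saline libraries and from 149 to 209.8 CPM with a median of 158 in the cocaine libraries, so that 1 saline library lay far above the rest and the groups overlapped. Without that library the difference of Rps12 was −0.08. Rps4y2 (−0.25), Rpl5 (−0.18), Rpl30 and Rplp0 (−0.22) were the other members with an unadjusted p under 0.05. Without saline library 1 these 4 had −0.16, −0.11, −0.11 and −0.14, and none passed that p. Rps15a, at 0.02, had the largest positive difference next to Rpl22l1, and without that library the pair had 0.14 and 0.23.

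In the PFC the members again showed no call at either time. After 1 day limma called 0 of 80 members and 0.00693% of 14427 genes, and at an unadjusted p under 0.05 there were 0 members higher and 0 lower, against 1.67% and 2.11% of all genes. edgeR on the recovered reads gave the same counts of members. The median was −0.034 against −0.011, with 19 of 80 members above 0, or 23.8% against 45.4% of all genes. The largest positive differences were Rps27l at 0.16 ± 0.11 and Rpl7l1 at 0.10 ± 0.06, and the largest negative ones Rps15 at −0.14 ± 0.13 and Rplp1 at −0.14 ± 0.15. After 28 days edgeR called 0 of 80 members and 0% of 16340 genes. At an unadjusted p under 0.05, 0 members were higher and 3 lower, Rps26, Rpl28 and Rpl23a, against 2.69% and 2.97% of all genes, and DESeq2 gave 0 higher and 4 lower with 0 after adjustment. The median was −0.036 against 0.00042 for all genes, with 19 of 80 members above 0, or 23.8% against 50.1%. Without saline library 4 the median was 0.0099 against 0.0032 and 47 of 80 members lay above 0, or 58.8% against 51.5%. In that fit 0 members and 0% of 16361 genes were called, and 0 members were higher and 0 lower, against 2.33% and 2.26% of genes. Rps26, a small subunit protein near the mRNA exit, ran from 60.4 to 69.3 CPM with a median of 66.7 in cocaine and from 64.4 to 94.4 CPM with a median of 72.8 in saline libraries, at −0.20 ± 0.08. Rps26, Rpl28 and Rpl23a had −0.12, −0.10 and −0.10 without saline library 4. Rps4y2 ran from 9.22 to 12.3 CPM with a median of 10.4 in cocaine and from 8.97 to 17.8 CPM with a median of 13.4 in saline libraries, at −0.28 ± 0.14 and an adjusted p of 0.842 with edgeR. The saline range of Rps4y2 enclosed the cocaine range. Rpl22l1 and Rpl39 had the largest positive differences, 0.10 ± 0.07 each.

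**Figure D2:**
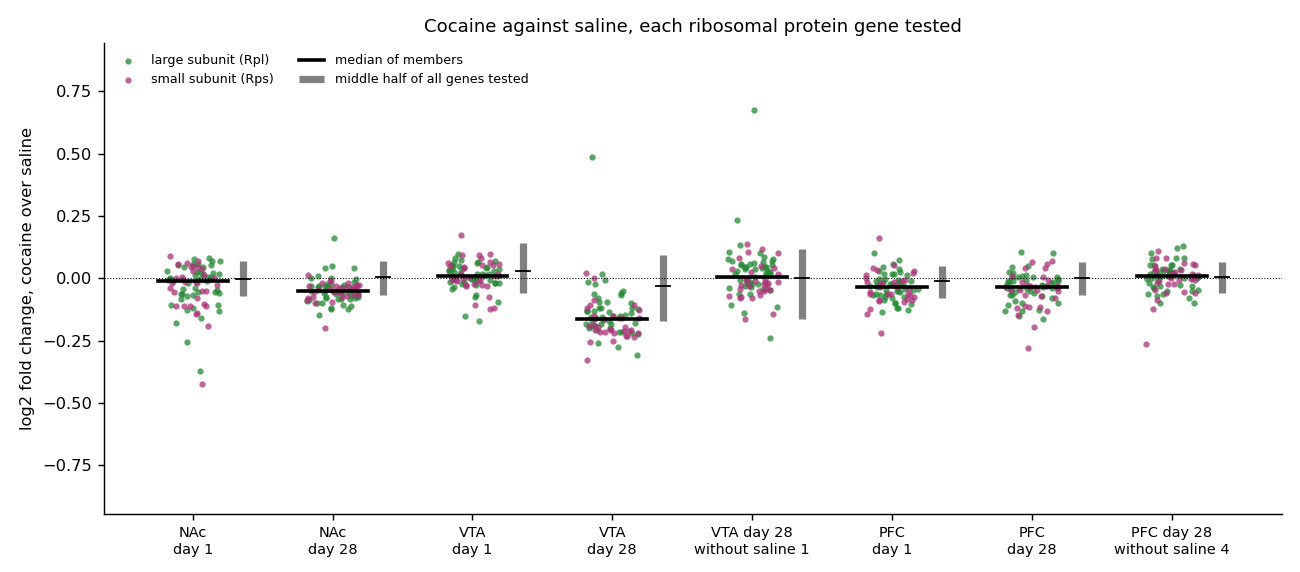
Log2 fold change of cocaine over saline for each ribosomal protein gene tested, with 1 point per gene, a black line at the median of the genes and a grey bar over the interquartile range of all genes tested. The points of the 28-day VTA sit around a median of −0.165 and move to 0.0032 without saline library 1, and those of the other tables have medians between −0.05 and 0.0099.

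Read by role, no group of members gave a difference that passed the adjusted test in any table, and the values follow in the order NAc, VTA and PFC after 1 day and then NAc, VTA and PFC after 28 days. The stalk proteins bind elongation factors, and their base, Rplp0, had log2 differences of −0.16, 0.10, −0.11, −0.03, −0.22 and −0.02. Rplp1, at the tip of the stalk, had −0.26, −0.15, −0.14, −0.10, −0.21 and −0.05. Its partner Rplp2 had −0.11, −0.03, −0.07, −0.11, −0.28 and −0.04. Both tip proteins were below 0 in all 6 tables, as were 21 of the 80 members tested in all of them, or 26.25%, against 3.68% of 13817 genes, and none of the differences of the tip proteins passed an unadjusted p of 0.05. Without the 2 libraries that stood apart only 6 of 80 members, or 7.5%, were below 0 in all 6 tables, against 2.34% of genes. Neither tip protein was among them, with Rplp1 at −0.03 in the VTA and 0.03 in the PFC after 28 days and Rplp2 at −0.02 and 0.01. Rps6, the substrate of S6 kinase, had 0.0019, −0.01, −0.02, −0.04, −0.19 and −0.05. Rpsa, which is also known as the laminin receptor, had −0.05, −0.03, −0.08, −0.01, −0.16 and −0.03. Rps27a, which is made as a fusion with ubiquitin, had 0.01, 0.05, 0.01, −0.06, −0.23 and 0.01. Outside the 28-day VTA, with its saline library 1, the values of these 3 genes lay between −0.08 and 0.05. Rps19, Rpl5 and Rpl11 are genes mutated in Diamond-Blackfan anaemia, and Rpl5 and Rpl11 also bind Mdm2. Rps19 had −0.04, 0.04, −0.09, −0.04, −0.09 and −0.11. Rpl5 had 0.08, 0.02, 0.03, −0.03, −0.18 and 0.0044. Rpl11 had −0.06, −0.01, −0.03, −0.05, −0.19 and 0.0046. Rpl10, which completes the large subunit, and Rpl38, mutated in the Tail short mouse, ran from −0.16 to 0.06 and from −0.16 to 0.03, both lowest in the 28-day VTA. Without saline library 1 the 28-day VTA values were −0.14 for Rplp0, −0.0097 for Rps6, 0.05 for Rpsa, −0.02 for Rps27a, 0.12 for Rps19, −0.11 for Rpl5, 0.03 for Rpl11, −0.05 for Rpl10 and 0.07 for Rpl38. The lower values of most of these genes in that table therefore rested on 1 saline library.

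Among the paralogs, Rps4y2 was on the lower side in cocaine in all 6 tables, at −0.42, −0.12 and −0.22 after 1 day and −0.20, −0.25 and −0.28 after 28 days in the NAc, VTA and PFC. Its parent Rps4x had 0.05, 0.10, 0.0022, −0.03, −0.21 and 0.04 in the same order. The 6 tables have no libraries in common, but tables of the same time can hold regions of the same mice. A test over the 6 tables was not made, since Rps4y2 was singled out after its values were seen. Rps4y2 had, without the 2 libraries that stood apart, −0.16 in the VTA and −0.26 in the PFC after 28 days. Rpl36, also singled out afterwards, ran from −0.37 in the NAc after 1 day to −0.01 in the PFC after 28 days, but without those libraries it had 0.05 in the VTA and 0.08 in the PFC. Rpl22 ran from −0.31 to 0.03 and Rpl22l1 from −0.02 to 0.10. Rps27 ran from −0.21 to 0.09 with Rps27l from −0.19 to 0.17, Rpl7 from −0.15 to 0.06 with Rpl7l1 from −0.03 to 0.10, and Rpl39 from −0.26 to 0.10. Rpl3 ran from −0.07 to 0.03, while Rpl3l, at under 1 RPKM, had 0.16 in the NAc and 0.49 in the VTA after 28 days. Without saline library 1 the 28-day VTA values were −0.08 for Rps4x, −0.0072 for Rps27, −0.14 for Rps27l, −0.06 for Rpl7, 0.06 for Rpl7l1, −0.06 for Rpl39, 0.10 for Rpl3 and 0.68 for Rpl3l.

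Genes that work with the ribosomal proteins were read from lists of the same fits, and no gene of the lists named here was called by the adjusted test in any table. Ribosome biogenesis factors, with 46 genes tested, had medians of 0.016, 0.043 and 0.00032 after 1 day and 0.045, −0.0042 and −0.038 after 28 days in the NAc, VTA and PFC. At an unadjusted p under 0.05, 3 of them were higher in the 28-day NAc, 4 higher in the 1-day VTA and 5 lower in the 28-day PFC. The shares of all genes were 3.34%, 11.2% and 2.97% in that order. The 39 translation factors had medians from −0.055 to 0.028, and the 16 mTOR regulators tested had medians from −0.027 to 0.024. The 6 small nucleolar RNA host genes had medians from −0.027 to 0.082. Nuclear-encoded genes of the mitochondrial respiratory chain moved with the members where saline library 1 took part, with a median of −0.179 in the 28-day VTA, and genes of the mitochondrial ribosome had −0.106 there. Without that library the respiratory chain median was −0.029 and that of the mitochondrial ribosome 0.034.

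The members varied together from library to library. Within a table the SD of the member mean over libraries was 0.0999 to 0.205 in log2, close to the SD of a median single member, 0.117 to 0.229. With the group means taken off, the median correlation of a member with the mean of the other members was 0.852 to 0.963, and 64 to 80 members had a correlation over 0.5. The points of each table, 11 or 12 libraries, share library preparation and scaling, and these values are descriptions.

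The member mean was set against 6 library measures for this reason. Of these, the levels of nuclear-encoded respiratory chain genes and of nuclear long noncoding RNAs are themselves expression levels. The level of the nuclear-encoded respiratory chain genes tracked the member mean in 5 of the 6 tables, with Pearson's r of 0.82 in the NAc, 0.97 in the VTA and 0.81 in the PFC after 28 days and 0.62 and 0.81 in the VTA and PFC after 1 day. In the NAc after 1 day r was −0.05. Without the 2 libraries farthest from the median respiratory chain level these values were 0.81, 0.59, 0.78, 0.65, 0.84 and 0.25, and Spearman's rho over all libraries was 0.79, 0.83, 0.82, 0.51, 0.88 and −0.20 in the same order. Within the cocaine and the saline libraries r was 0.60 to 0.87 and 0.60 to 0.98 in those 5 tables, and −0.20 and 0.027 in the 1-day NAc. The share of reads on mitochondrially encoded genes had a negative r with the member mean in all 6 tables, at −0.63, −0.81 and −0.26 after 1 day and −0.65, −0.89 and −0.04 after 28 days in the NAc, VTA and PFC. Leaving out the 2 farthest libraries gave −0.41, −0.58, −0.31, −0.81, −0.45 and 0.34. Within the cocaine libraries r was −0.28, −0.78, 0.33, −0.65, −0.45 and 0.51, and within the saline libraries −0.95, −0.89, −0.44, −0.77, −0.91 and −0.16. The relation with the mitochondrial share was thus negative within both groups in the NAc and VTA and not in the PFC. The total number of reads had an r of −0.29 to 0.34 and the number of genes detected −0.28 to 0.49. The share of reads on the 10 highest genes had −0.61 to −0.14, with −0.61 in the 1-day NAc. There it was −0.26 within cocaine and −0.96 within saline libraries, while genes detected had −0.64 and 0.91. The mean level of nuclear long noncoding RNAs had −0.67 to −0.08, with −0.67 in the VTA and −0.66 in the PFC after 28 days.

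**Figure D3:**
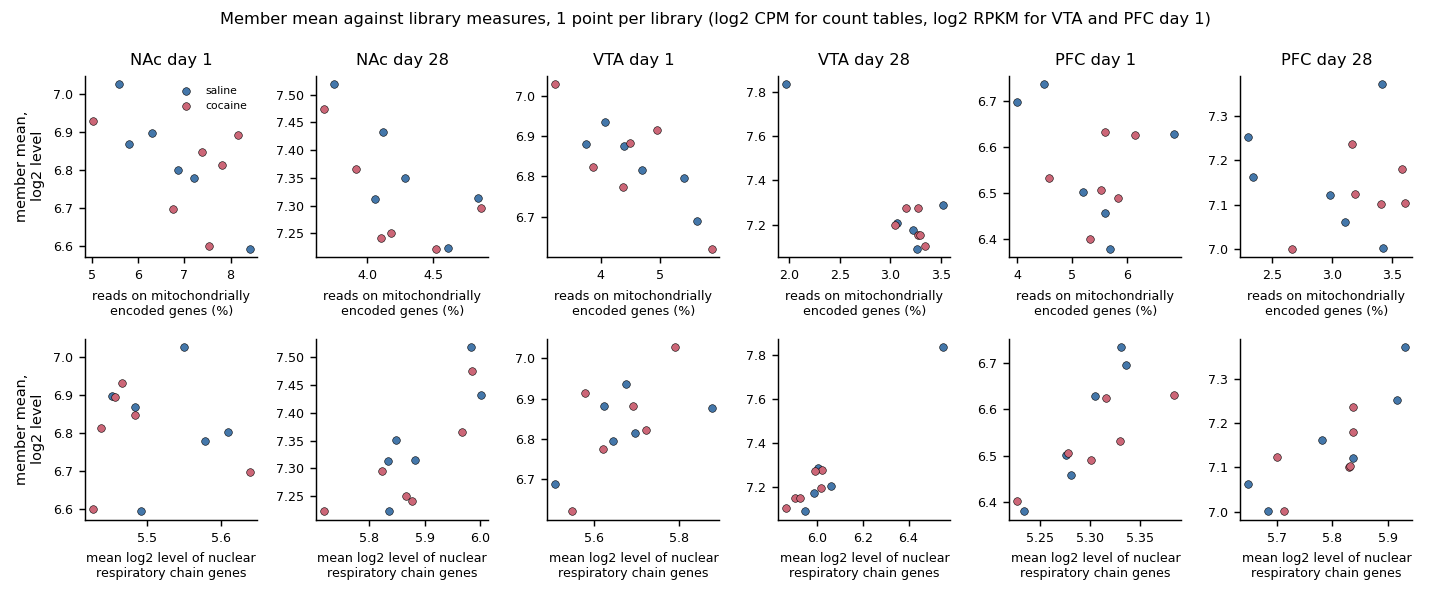
Member mean of each library (log2 CPM, or log2 RPKM for VTA and PFC day 1) against the percent of reads on mitochondrially encoded genes (top) and the mean log2 level of nuclear-encoded respiratory chain genes (bottom), with 1 point per library in blue for saline and red for cocaine. The lower panels climb to the right in all tables but the 1-day NAc, with r of −0.05 there and 0.62 to 0.97 in the others, and in the 28-day VTA the single saline point at 7.84 sets most of the range.

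The regions were compared in the saline mice, where no cocaine had been given, to describe where ribosomal protein mRNAs are highest. The 28-day tables were fitted together as counts in edgeR with 17 libraries, and the 1-day tables in limma on RPKM with 18 libraries. The regions were deposited as separate tables, so that region and table cannot be told apart. The study took the 3 regions from the same brains, so that libraries of different regions can share a mouse. The labels do not say which do, and the tests treat the libraries as independent. Most members that differed between the PFC and NAc were lower in the PFC at both times. Rps4y2, Rps15a, Rps27l, Rps6 and Rpl7l1 were higher in the VTA than in the NAc at both times. Against the PFC, 48 of 80 members were higher in the VTA after 1 day and 13 of 81 after 28 days. The shares of all genes were 40.2% and 29.8%.

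Between the PFC and NAc, 1 of 81 members was higher and 32 lower in the PFC after 28 days at an adjusted p under 0.05, against 20.7% and 20% of the 17181 genes. After 1 day 2 of 80 members were higher and 28 lower, against 18.5% and 23.8% of 14844 genes. The median log2 difference was −0.256 after 28 days and −0.174 after 1 day, with −0.019 and −0.047 for all genes. Without the 2 libraries that stood apart, 3 members were higher and 65 lower after 28 days, against 23.8% and 23.5% of 17308 genes, with a median of −0.295. The 2 sets of lower members shared 23 genes, 71.9% of those after 28 days and 82.1% of those after 1 day. Without NAc saline library 3 the 28 lower members after 1 day became 17, against 21.3% of genes lower in that fit, and without NAc saline library 4 they became 56, against 25.6%. After 28 days the 32 lower members became 60 without VTA saline library 1, which changes the shared spread, against 23.4% of genes. Rps27 was lower in the PFC by −0.55 after 28 days and −0.40 ± 0.08 after 1 day, with adjusted p of 0.00219 in edgeR and 0.000419 in limma. Its 1-day level ran from 446 to 577 RPKM with a median of 483 in the NAc and from 349 to 413 RPKM with a median of 372 in the PFC. The regions did not overlap. Rpl31, a large subunit protein at the tunnel exit, was lower by −0.51 ± 0.09 and −0.37 ± 0.07. It ran from 244 to 297 CPM in the NAc and from 157 to 236 CPM in the PFC after 28 days, and from 181 to 239 RPKM and from 141 to 172 RPKM after 1 day, again without overlap. Rps12 was lower by −0.51 and −0.44, and Rps19 by −0.48 and −0.45. The exception in both sets was Rpl22, higher in the PFC by 0.15 ± 0.06 and 0.22 ± 0.05. Rpl22 ran from 38.2 to 44.4 RPKM in the NAc and from 47.1 to 49.4 RPKM in the PFC after 1 day. The 28-day difference of Rpl22 had an adjusted p of 0.0404 in edgeR and was lost in 11 of the fits that left out 1 library. Without the 2 libraries that stood apart it was 0.16, with an adjusted p of 0.0134 in edgeR.

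Between the VTA and NAc the members went both ways after 1 day. After 28 days more were lower than higher in the VTA, and how many were lower depended on VTA saline library 1. After 28 days 5 were higher and 16 lower in the VTA, against 32.6% and 29.8% of all genes, and after 1 day 13 were higher and 9 lower, against 38.3% and 28.6%. The median was −0.117 after 28 days and 0.073 after 1 day, with 0.027 and 0.079 for all genes. The sign of the 1-day median turned to −0.0043 with edgeR's scaling of the reads. Without the 2 libraries that stood apart, 5 members were higher and 61 lower after 28 days, against 34.3% and 32.3% of all genes, with a median of −0.265. Leaving out VTA saline library 1 alone gave 56 lower members, against 32.1% of genes. The same 5 members were higher at both times, with and without those libraries, namely Rps4y2, Rps15a, Rps27l, Rps6 and Rpl7l1. Rps6 ran from 159.8 to 197 RPKM with a median of 165 in the VTA after 1 day, above all NAc libraries at 114 to 139.9 RPKM and all PFC libraries at 99.7 to 118 RPKM. Its log2 difference from the NAc was 0.45 ± 0.06 after 1 day with an adjusted p of 4.17e-06 in limma, and 0.31 ± 0.11 after 28 days with 0.0222 in edgeR, or 0.14 with 0.0428 without the 2 libraries. Rps15a, a small subunit protein, ran from 38.9 to 45.9 RPKM in the VTA, from 34.2 to 36.8 RPKM in the PFC and from 31.4 to 33.7 RPKM in the NAc after 1 day. The 3 regions did not overlap, and the VTA was above the NAc by 0.39 after 1 day and 0.40 after 28 days. Rps4y2 ran from 4.12 to 9.56 RPKM with a median of 7.23 in the VTA, from 2.69 to 5.93 RPKM with a median of 4.49 in the NAc and from 1.25 to 4.54 RPKM with a median of 2.59 in the PFC after 1 day. After 28 days its 5 VTA libraries had 30.7, 23.7, 25.3, 25.8 and 22.2 CPM, against 14.2 to 18.7 CPM in the NAc and 9.38 to 18.8 CPM in the PFC. The VTA libraries stood above both other regions after 28 days, with a log2 difference from the NAc of 0.62 ± 0.14 and an adjusted p of 0.00123 in edgeR. The neighbours NAc and PFC overlapped for Rps4y2 at both times, with a difference of −0.72 ± 0.26 after 1 day whose adjusted p was 0.0312 in limma and which was lost in 6 of the fits that left out 1 library.

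The members that were lower in the VTA than in the NAc at both times were 9 genes, Rpl5, Rpl12, Rpl27a, Rpl30, Rpl31, Rps2, Rps19, Rps23 and Rps27. They were 56.3% of the lower members after 28 days and 100% of those after 1 day. Rpl31 was lower by −0.69 ± 0.10 after 28 days, with an adjusted p of 8.86e-06 in edgeR, and by −0.27 after 1 day. Rps2 had log2 differences of −0.58 and −0.32. It ran from 334 to 409 CPM in the NAc, while the VTA libraries lay between 212 and 239 CPM apart from saline library 1 at 357 CPM. Rpl12, a protein of the stalk base, had −0.53 and −0.33. Rpl29 and Rplp1 had −0.63 and −0.60 after 28 days.

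Between the VTA and PFC, 13 members were higher and 2 lower in the VTA after 28 days, against 29.8% and 28.1% of all genes. After 1 day 48 were higher and 1 lower, against 40.2% and 25.7%. The median was 0.153 after 28 days and 0.248 after 1 day, with 0.022 and 0.118 for all genes, and edgeR on the 1-day reads gave 33 higher and 5 lower, against 32.9% and 31.6% of all genes, with a median of 0.139 against 0.020. Without the 2 libraries 11 were higher and 8 lower after 28 days, against 31.2% and 30% of all genes, with a median of 0.042. Leaving out VTA saline library 1 alone gave 14 lower members, against 30.0% of genes, and leaving out VTA saline library 2 gave 21 higher members, against 29.4%. Of the 12 members higher at both times 9 are small subunit genes, Rps4y2, Rps6, Rps12, Rps15a and Rps27l among them. They were 92.3% of the higher members after 28 days and 25% of those after 1 day. Of the 12, 11 were still called after 28 days without the 2 libraries, and Rps15a was not, at an adjusted p of 0.0548 in edgeR. Rps4y2 had the largest difference, 0.93 after 28 days and 1.5 ± 0.26 after 1 day, with an adjusted p of 2.57e-05 in edgeR and 4.5e-05 in limma. Rpl12 was lower in the VTA at both times, by −0.33 and −0.23, and its 28-day call was lost on leaving out any of 6 libraries, namely VTA saline 2, 3, 4 or 5 or PFC saline 1 or 4. Without the 2 libraries that stood apart its 28-day difference was −0.45, with an adjusted p of 0.000166 in edgeR.

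**Figure D4:**
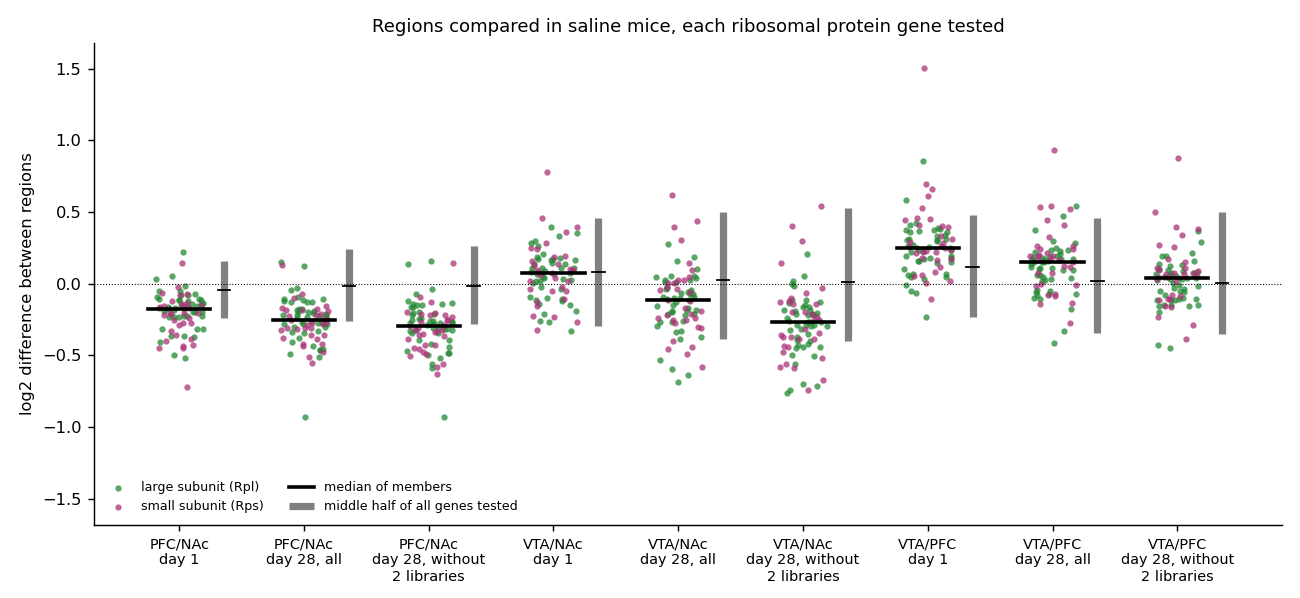
Log2 difference between regions in saline mice for each ribosomal protein gene tested, with 1 point per gene, a black line at the median of the genes and a grey bar over the interquartile range of all genes tested. PFC over NAc sits below 0 at both times with medians of −0.174 and −0.256, VTA over NAc turns from 0.073 to −0.117, and Rps4y2 is the highest point for VTA over PFC at 1.5 and 0.93.

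Levels per gene length also differed between the tables of the 2 times, and from gene to gene the size of this difference varied with base composition. It was looked at after the data had been seen, and it is a description with no test, since age, time of abstinence, library preparation and sequencing all differ between the times and cannot be told apart. In saline mice the median log2 ratio of 28 days over 1 day was 0.55 in the NAc, 0.46 in the VTA and 0.47 in the PFC, with −0.061, −0.016 and −0.065 for all genes. Of 80 members, 69, 65 and 60 had a ratio above 0. Without the libraries that stood apart the VTA and PFC medians were 0.31 and 0.44. Rpl36 had the largest ratio, with a mean of 25.4 RPKM after 1 day and 183 RPKM after 28 days in the NAc, 30.1 and 202 RPKM in the VTA and 16.9 and 139.9 RPKM in the PFC. Rplp1 went from 196 to 1042, from 166 to 742 and from 136 to 721 RPKM. Rps27, the highest member after 1 day, had ratios of 0.944, 0.90 and 0.825. Across the 80 members the rank correlation of the ratio with the share of G and C in the longest transcript was 0.72, 0.68 and 0.71, and across all genes it was 0.83, 0.73 and 0.84. With the gene length recovered from the RPKM values it was −0.17, −0.16 and −0.16 across the members and −0.25, −0.25 and −0.24 across all genes. The median G and C share was 51.2% for the members and 50.45% for all genes in each region. The median length was 947 bases for the members and 3032.5, 3017.5 and 3037 bases for all genes. The part of base composition and of length in the higher median ratio of the members was not tested.

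**Figure D5:**
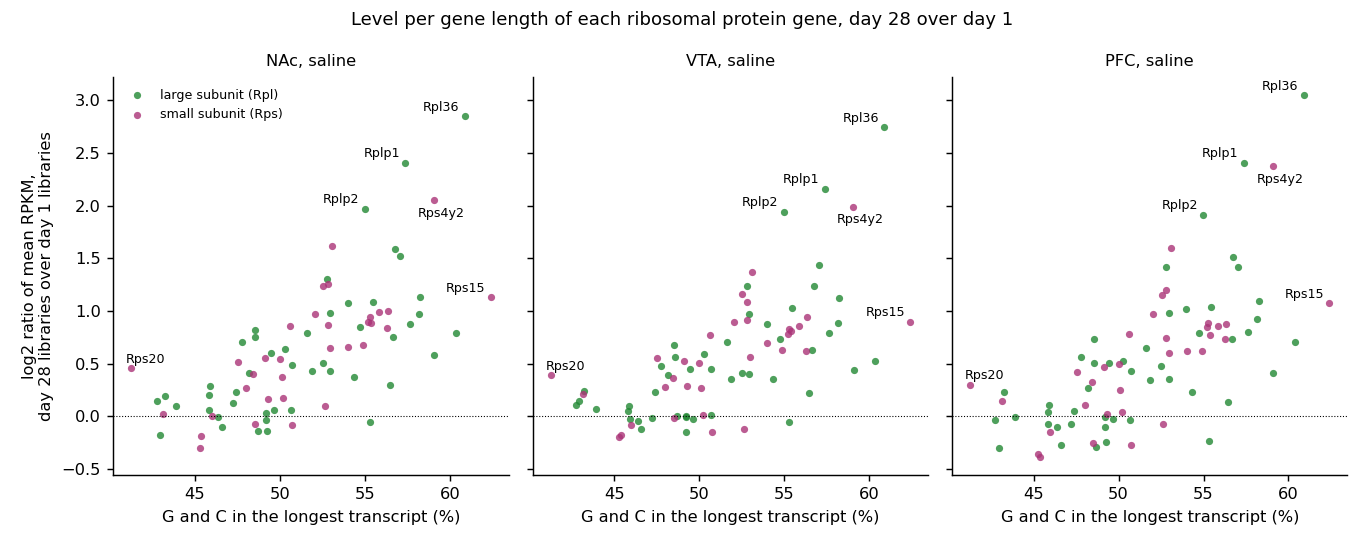
Log2 ratio of mean RPKM, 28-day over 1-day saline libraries, against the percent of G and C in the longest annotated transcript, with 1 point per ribosomal protein gene and a panel per region. The points climb to the right, with rank correlations of 0.72, 0.68 and 0.71, and Rpl36 lies highest in each panel.

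The cocaine differences of the members also varied with base composition, with members richer in G and C lower in cocaine. The rank correlation of the log2 fold change with the G and C share across members was −0.63, −0.29 and −0.68 in the NAc, VTA and PFC after 1 day and −0.33, −0.18 and −0.31 after 28 days, and across all genes −0.35, 0.041 and −0.49 and −0.17, −0.086 and −0.30. Rps15, Rpl36 and Rps4y2, with 62.4, 60.9 and 59.1% G and C, are the members ranked 1, 2 and 5 of 80 by this share. The lower values of Rpl36 and Rps4y2 in cocaine libraries therefore stand beside this relation, and the part of base composition in them was not tested. For the region differences the same rank correlation across members lay between −0.31 and 0.30.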

How the data were processed

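Libraries were made from micro-punched NAc, VTA and PFC tissue. Per the submitters' processing notes and methods, the authors aligned reads with STAR 2.4.1d to mm9 with an Ensembl annotation; the counter and strand setting are not given in the sources used here. The authors deposited raw read counts per gene for the NAc after 1 day and for all regions after 28 days, and RPKM values, scaled to gene length and library total, for the VTA and PFC after 1 day. 30 columns of per-library values that match no sample were not used, nor were 36 columns of the authors' comparisons, which hold fold changes and p-values. In the 28-day tables a column gives its group only, and library numbers there are those of the columns.

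Counts were tested in edgeR 4.0.16 (R 4.3.3) with TMM scaling, filterByExpr (minimum count 10, minimum total 15) and the quasi-likelihood F-test. RPKM values were tested in limma 3.58.1 (eBayes with trend) on log2(RPKM + 0.1) where the mean RPKM of a gene reached 0.5, so that these fold changes understate low genes. The deposited RPKM were whole reads for 100% of 23806 and 23353 genes within a tolerance of 0.01, and edgeR on those reads was an alternative; it called 55 genes in the VTA and 1 in the PFC. Gene lengths recovered with them turned counts into RPKM. DESeq2 1.42.0, other scalings and filters, covariates, a replicate block and leaving out each library were also run. Adjusted p-values are Benjamini-Hochberg over all genes tested, with a threshold of 0.05. Member means are of log2(level + 0.1) over tested members, and correlations carry no p. G and C shares are of the longest protein-coding transcript of the mm9 annotation. Tests were tried on simulated data first, and no 2 libraries were duplicates (lowest chi-square per gene 4.59). Intervals from counting were not used, since each value rests on replicate libraries.

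The members and all lists were chosen with earlier results of these data known. Named members are those past the adjusted threshold, the 2 largest differences in each direction per table with at least 10 CPM or RPKM, the 3 largest in each direction per region comparison, a set named for their roles, and paralogs with their parents. Genes of other lists are given by counts and medians. Results for some genes that the rule would name are not reported here.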

Additional observations from a re-analysis of the deposited data

Results flagged for a closer look

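In 12 of the 121 groups of member values examined, or 9.92%, 1 library lay apart from the rest of its group by Dixon's criterion. Of the 12, 4 were saline library 1 of the 28-day VTA. The criterion flags about 1 in 20 independent groups, and these groups were not independent. Apart from the member means, they were of members named for large differences, and they shared libraries. The share of 9.92% therefore cannot be set against chance. That library had a member mean of 7.84 in log2 CPM against 7.09 to 7.29 in the other 10 libraries of its table. Rps12 stood at 340.1 CPM in it against 154 to 194 CPM in the other saline libraries, and at 311 CPM against 146 to 182 CPM when the saline libraries of the 3 regions were scaled together. Rps2 stood there at 357 CPM against 212 to 239 CPM. The same library had the highest respiratory chain mean of its table, 6.55 against 5.86 to 6.06, and the lowest share of mitochondrially encoded reads, 1.97% against 3.05 to 3.52%.

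The remaining 8 values were in other libraries. Rps27l had 13.7 RPKM in cocaine library 1 of the 1-day VTA against 17.2 to 19.2 RPKM, and 7.88 CPM in saline library 2 of the 28-day VTA against 9.90 to 10.6 CPM. Saline library 4 of the 1-day VTA had 89.1 RPKM of Rpl29 against 61.7 to 71.7 RPKM and 46.2 RPKM of Rpl36 against 23.2 to 29.6 RPKM. Rpl5 had 112 RPKM in saline library 6 of that table against 97.7 to 102 RPKM. In the 28-day PFC Rps26 had 60.4 CPM in cocaine library 5 against 66.2 to 69.3 CPM, Rps12 had 166 CPM in saline library 4 against 120.3 to 136 CPM, and Rpl3l, a low gene, had 0.309 CPM in saline library 5 against 0.164 to 0.211 CPM.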

How the results depend on the processing

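The count of members called after adjustment stayed at 0 in the cocaine comparisons under all settings run, except that DESeq2 called 1, Rpl22, in the 28-day VTA. Rps4x in the 1-day VTA turned to −0.020 with the cortical marker mean as a covariate, and in the 28-day VTA Rps15a and Rpl22l1 turned to −0.18 and −0.37 with it. In the latter fit, which kept saline library 1, 61 members were lower at an unadjusted p under 0.05, against 13.1% of genes, with a median of −0.36. Leaving out each library in turn, Rps15a ran from −0.027 to 0.14 and Rpl22l1 from −0.087 to 0.23 there. The genes called in the 1-day VTA went from 10 to 0 with the cortical covariate, 55 with edgeR on reads, 62 with centring, 60 with the replicate block and 193 with the mitochondrial covariate. DESeq2 called 21, 14, 74 and 2 genes in the 1-day NAc and the 28-day NAc, VTA and PFC, against 2, 0, 0 and 0 in edgeR. The share of members above 0 in the 1-day VTA was 8.75% with the cortical covariate, against 53.3% of genes.

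In the regions, leaving out both libraries that stood apart, an alternative chosen after seeing the data, gave 61 members lower in VTA than NAc, 3 higher and 65 lower in PFC than NAc and 8 lower in VTA than PFC after 28 days. The shares of all genes were 32.3%, 23.8%, 23.5% and 30% in that order. Without a filter 0 were higher in PFC than NAc. edgeR on the 1-day reads gave 15 lower in VTA than NAc and 5 lower in VTA than PFC. In the limma fits 28.6% and 25.7% of all genes were lower in these comparisons. Over fits that left out 1 library, the members lower in VTA than NAc after 28 days ran from 14 to 56, those higher in PFC than NAc from 0 to 2, those lower in PFC than NAc from 23 to 60, and those higher and lower in VTA than PFC from 11 to 21 and from 1 to 14. With all libraries kept, the shares of all genes were 29.8%, 20.7%, 20%, 29.8% and 28.1% in that order. After 1 day those lower in PFC than NAc ran from 17 to 56 and those lower in VTA than PFC from 1 to 2, with 2 only without VTA saline library 6. The shares of all genes with every 1-day library kept were 23.8% and 25.7%.

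The replicate block was tried where the labels number the libraries, at 1 day. Same-numbered cocaine and saline libraries had correlations of their deviations above 0.1 in 3 of 6 pairs in the NAc, 4 of 6 in the VTA and 0 of 6 in the PFC, so the numbers were not taken to pair the samples. With the block 0 members were called in any table, with 2, 60 and 1 genes called in the NAc, VTA and PFC, and the region tests, blocked after seeing the data, gave 2 higher and 22 lower in PFC than NAc, 12 and 8 in VTA than NAc, and 43 and 1 in VTA than PFC. Without the block the shares of all genes were 18.5% and 23.8%, 38.3% and 28.6%, and 40.2% and 25.7% in the same order. Of the 144 recomputed counts and medians that answer a comparison, apart from fits without 1 library, 136 stayed within 1.5 times of the reported count or, for medians, moved by less than the SD between libraries, and the other 8 are given above. The sign of the member median in the 1-day VTA, near 0, also turned in fits without 1 library. Depth was not varied.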
